A study of Mus musculus with 6 samples.

Results

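The calcium/calmodulin-dependent protein kinase (CaM kinase) genes analysed here are Camk2a, Camk2b, Camk2d and Camk2g, which encode the alpha, beta, delta and gamma subunits of CaMKII, Camk4, which encodes CaMKIV, and Camkk1 and Camkk2, which encode the kinases that activate CaMKIV, together with Camk2n1 and Camk2n2, which encode inhibitor proteins of CaMKII. The members were found by their names: an isoform belonged to the set when its name, without the final number, was one of these 9 gene symbols. This gave 84 of the 133944 isoforms and 9 of the 53354 gene symbols in the deposited table. Of the 84 isoforms, 75 had counts in at least 1 mouse, 9 were at 0 in every mouse and 55 had enough counts to be tested.

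CaM kinases are switched on when calcium enters a neuron, binds calmodulin, and calmodulin opens the kinase domain. CaMKII is among the most abundant proteins of the hippocampal synapse, where its subunits assemble into a holoenzyme that phosphorylates glutamate receptors and scaffold proteins during long-term potentiation, while CaMKIV acts mainly in the nucleus. All 4 CaMKII genes are spliced alternatively in the linker between the kinase domain and the association domain, and this linker sets actin binding and nuclear entry.

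RNA was taken from hippocampi of 3-month-old C57BL/6 mice, 3 labelled N-cre (Nes-Cre, a Cre recombinase driven by the nestin promoter) and 3 labelled N-cre;Fox1 (the same Cre with the R26-Rbfox1 flox/+ allele), with 1 library per mouse. The N-cre;Fox1 mice carry an additional allele at Gt(ROSA)26Sor, from which a CAG promoter expresses an Rbfox1 cDNA once Cre has removed a stop cassette, and both genotypes carry the Cre. The study describes the activity of this Cre in the hippocampus as neuronal, and gives the background of the mice with the Rbfox1 allele as C57BL/6J after backcrossing. The comparison asks how the expression and splicing of these genes differ when Rbfox1, a splicing factor and RNA-binding protein that recognises GCAUG, is expressed from this allele.

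The authors deposited expected counts per isoform, estimated by RSEM, which splits ambiguous read pairs among the isoforms they match. The counts summed to between 40463587 and 62141336 per mouse. Normalized counts given here are expected counts scaled by edgeR's TMM factors, and a gene sum adds those of every isoform under 1 gene symbol. The normalized Rbfox1 sum was 15286, 14456 and 14698 in N-cre replicates 1, 2 and 3, and 15939, 13571 and 15283 in N-cre;Fox1 replicates 1, 2 and 3. These values overlapped, at a log2 fold change of 0.01, so that the labels could not be checked from this sum, and every direction below is one between libraries with these labels. Choroid plexus markers (4 of 4 tested, Ttr, Folr1, Kl and Aqp1) summed to 116860 in N-cre replicate 3 and 263184 in N-cre;Fox1 replicate 2, and to between 1355 and 1825 in the other 4 mice. Replicate 1 of each genotype had an Xist sum of 23514 (N-cre) and 22029 (N-cre;Fox1), while the highest of the other 4 mice was at 22.2. Markers of hippocampal neurons were present in all libraries, with sums of 249948 to 263505 (N-cre) and 239283 to 261241 (N-cre;Fox1). All 4 CA1 pyramidal markers had a log2 fold change below 0, with overlapping sums of 34699 to 38007 (N-cre) and 31086 to 34771 (N-cre;Fox1). Of these, 1 did not overlap, Wfs1 (log2 fold change -0.35), and 0 were called. Of the CA3 markers 2 were higher and 2 lower, and of the dentate granule cell markers 3 were higher and 2 lower. The summed astrocyte markers did not overlap, with 77968 to 79156 (N-cre) against 82516 to 93303 (N-cre;Fox1), of which Gfap, Aqp4 and Gja1 were higher without overlap, Aldh1l1 and Slc1a3 had lower means with overlap, and 0 of 5 were called. In bulk tissue, fewer cells of a type and less RNA per cell cannot be told apart.

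The optional exons of the CaMKII genes are shown first, because the isoforms compared below differ mainly by them. They were cut from the GENCODE M21 transcripts of GRCm38 (mm10) and are given 5' to 3' on the strand of the gene. Camk2b lies on the minus strand of chromosome 11. Its most abundant isoform, Camk2b-209, holds a 75-base coding exon (chr11:5987057-5987131) and a 45-base coding exon (chr11:5981070-5981114) in the linker, and both are absent from Camk2b-204.
Camk2b 75-base exon: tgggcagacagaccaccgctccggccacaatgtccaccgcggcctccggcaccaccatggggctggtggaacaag

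The 45-base exon of Camk2b has a counterpart in Camk2d and in Camk2g, at chr3:126808208-126808249 on the plus strand and chr14:20744604-20744648 on the minus strand. In the 3 sequences below, capitals mark the 27 bases that are identical in all 3 genes. The Camk2b and Camk2d exons were identical at 34 of 45 aligned positions (75.6%), and those of Camk2b and Camk2g at 32 of 45 (71.1%).
Camk2b 45-base exon: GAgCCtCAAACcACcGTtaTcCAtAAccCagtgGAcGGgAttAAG
Camk2d 42-base exon: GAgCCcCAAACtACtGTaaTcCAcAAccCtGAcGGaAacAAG
Camk2g 45-base exon: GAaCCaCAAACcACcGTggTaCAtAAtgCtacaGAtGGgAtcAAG

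Camk2a, Camk2d and Camk2g each have a 33-base linker exon whose basic residues act as a nuclear localization signal. Those of Camk2d (chr3:126802937-126802969) and Camk2g (chr14:20747819-20747851) were identical at 26 of 33 bases (78.8%), which are in capitals.
Camk2d 33-base exon: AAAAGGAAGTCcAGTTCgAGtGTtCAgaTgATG
Camk2g 33-base exon: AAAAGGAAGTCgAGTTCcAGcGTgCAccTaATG

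The 60-base exon of Camk2d (chr3:126805857-126805916) and the 69-base exon of Camk2g (chr14:20745792-20745860) are further linker exons. The first is held by most of the Camk2d count, and the second separates Camk2g-202 from Camk2g-203.
Camk2d 60-base exon: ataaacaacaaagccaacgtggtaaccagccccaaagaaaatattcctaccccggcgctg
Camk2g 69-base exon: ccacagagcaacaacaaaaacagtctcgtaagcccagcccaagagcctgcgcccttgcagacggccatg

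Expressed per transcript length, the 9 genes spanned from 1955 TPM (length-scaled counts brought to the same total in each mouse, mean of 6 mice) for Camk2a to 28.2 for Camk2d. Camk2a was the gene with the 35th highest level of all genes in these hippocampi, and Camk2b followed at 859 TPM. Camk2n1 stood at 243, Camk2g at 180, Camkk1 at 160, Camk4 at 93.9, Camkk2 at 86.3 and Camk2n2 at 79.2 TPM. In this order, the values of neighbouring genes over the 6 mice overlapped for Camk4 and Camkk2, and for Camkk2 and Camk2n2, and did not overlap for the other 6 neighbouring pairs. With the length of the longest isoform in place of that of each isoform, the TPM of Camk2a was 2290, Camkk1 (180.1) came above Camk2g (160), and the order of the other genes was the same. The plot of levels shows that the spread between mice was small against the distance between most genes.

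**Figure D1:**
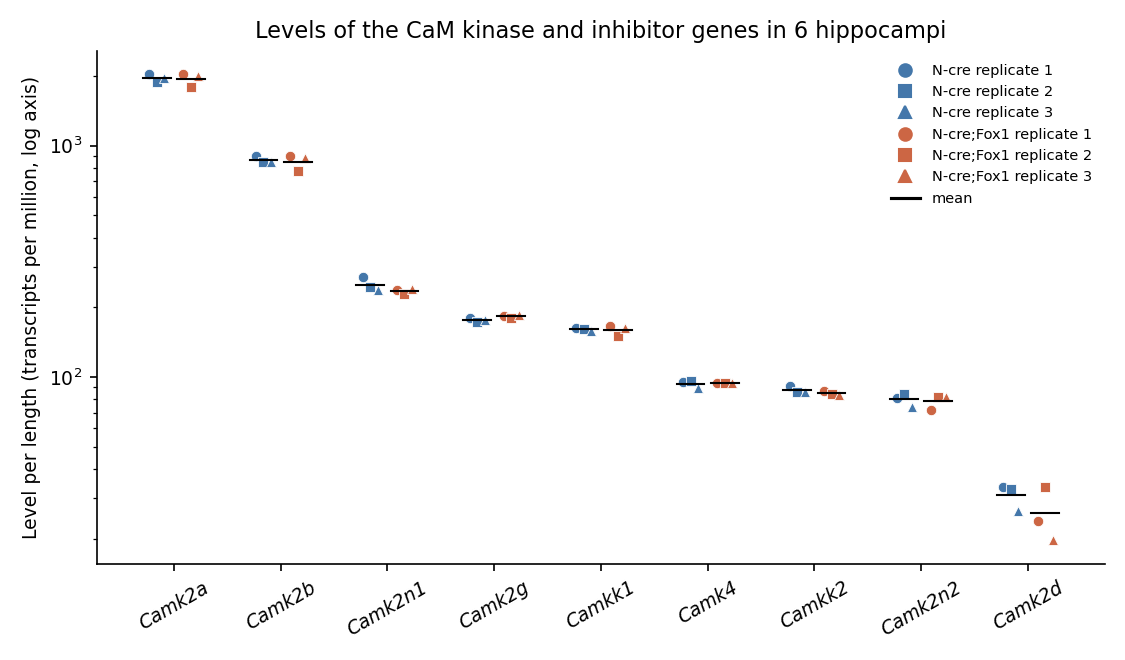
Level per length (TPM, log axis) of each gene in each of 6 mice, with colours for the genotype, symbols for the replicate number and lines for the mean of 3 mice. Camk2a (1955 TPM) and Camk2b (859 TPM) lie above the other genes, and the mice scatter most for Camk2d.

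None of the 9 gene sums passed the test between the genotypes. Their log2 fold changes lay between -0.29 and 0.03, with 2 above and 7 below 0, and their median was -0.02, against 0.00 (-2.35e-05) for all genes tested. The quasi-likelihood (QL) test of edgeR, with p-values adjusted over all genes by the method of Benjamini and Hochberg (BH), called 0 of 9 at 0.05 (lowest adjusted p 0.849), where 0.0264% of the 18924 genes tested were called. At an unadjusted p under 0.05 it picked 0 of 9, where 6.19% of all genes were picked, and DESeq2 and limma-voom also called 0 of 9. Normalized counts overlapped between the genotypes for all 9 genes, while they did not overlap for 12.2% of the genes tested. Per length, 1 of the 9 did not overlap, Camk2g, at 173 to 180.4 TPM in N-cre against 180.6 to 185 TPM in N-cre;Fox1 mice (two-sided exact permutation p = 0.1, the smallest possible). The share of all genes without overlap was not computed per length, and the normalized count of Camk2g overlapped. The plot of fold changes gives the interval of each difference.

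**Figure D2:**
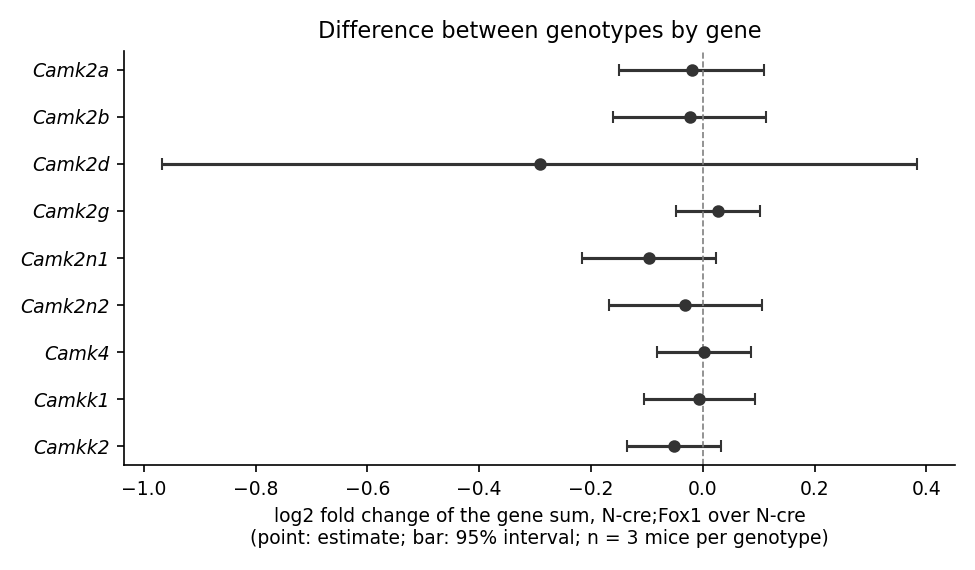
log2 fold change of each gene sum, N-cre;Fox1 over N-cre, as a point with its 95% interval from edgeR's quasi-likelihood fit (n = 3 mice per genotype). All 9 intervals include 0, and that of Camk2d (-0.97 to 0.38) is the widest.

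Camk2a encodes the alpha subunit, the main CaMKII subunit of forebrain excitatory neurons. Its normalized count was 226395, 208361 and 217645 in N-cre mice and 226189, 195040 and 222154 in N-cre;Fox1 mice. The groups overlapped, and N-cre;Fox1 replicate 2, which had the most choroid plexus RNA, was the lowest. N-cre replicate 3, the other mouse with much choroid plexus RNA, lay between the other N-cre mice (217645). The part of choroid plexus RNA in these values was not tested. The log2 fold change was -0.02 (SE 0.0582), and its 95% interval of -0.15 to 0.11 corresponds to changes of -9.90% to 7.94%.

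Camk2b encodes the beta subunit, which binds filamentous actin. Its normalized count was 77859, 72920 and 73486 in N-cre mice and 78185, 66335 and 76155 in N-cre;Fox1 mice. The lowest mouse was again N-cre;Fox1 replicate 2, and the groups overlapped. The log2 fold change of Camk2b was -0.02 (SE 0.0612, 95% interval -0.16 to 0.11).

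Camk2d encodes the delta subunit, the main CaMKII subunit of heart muscle, which is sparse in forebrain excitatory neurons. Its normalized count was 2637, 2646 and 2019 in N-cre mice and 1827, 2609 and 1535 in N-cre;Fox1 mice. N-cre;Fox1 replicate 2 lay among the N-cre values, while the other N-cre;Fox1 mice were below all N-cre mice. Camk2d had a log2 fold change of -0.29 (SE 0.251, 95% interval -0.97 to 0.38), with an adjusted p of 0.933 (edgeR QL, BH). Without N-cre replicate 3 and N-cre;Fox1 replicate 2, the 2 mice with choroid plexus RNA, it was -0.65, with an unadjusted p of 3.51e-05 and an adjusted p of 0.0835 (edgeR QL, BH). This alternative was chosen after the data were seen. It dropped the lowest N-cre mouse (2019) and the highest N-cre;Fox1 mouse (2609) for Camk2d, and so removed the overlap. The 2 mice left per genotype were at 2637 and 2646 against 1827 and 1535. With 2 mice against 2, the smallest possible p of an exact permutation test is 0.333. The summed markers of thalamus and striatum were 6209, 7765 and 8210 in N-cre and 6102, 9575 and 6703 in N-cre;Fox1 mice. N-cre;Fox1 replicate 2 was also the highest for this sum, but not for every marker in it. Ppp1r1b (3895), Prkcd (2355) and Drd2 (221) were highest in this mouse, Adora2a (55.5) was lowest, and the other markers lay between. The part of these markers in the Camk2d values was not tested. Across the 6 mice Camk2d varied with an SD of 0.33 on the log2 scale, and 3.04% of the genes with a mean count of at least 100 varied more.

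Camk2g encodes the gamma subunit. Mice had normalized counts of 11406, 10903 and 10998 in N-cre mice and 11299, 11120 and 11528 in N-cre;Fox1 mice. It was among the steadiest genes of the set, with an SD of 0.03 on the log2 scale over 6 mice. The log2 fold change of Camk2g was 0.03 (SE 0.0339, 95% interval -0.05 to 0.10).

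Camk2n1 and Camk2n2 encode small proteins that bind the activated kinase domain of CaMKII and block it. Both are read from a pair of exons, and the deposited table holds 1 isoform of each. Their coding sequences have 234 bases (chr4:138455186-138456785, plus strand, with 1 intron) and 237 bases (chr16:20620176-20621194, minus strand, with 1 intron), and are shown without the stop codon, with the 175 identical bases of 240 aligned positions (72.9%) in capitals. The aligned positions include gaps, which do not always keep the reading frame, so that some capitals mark bases at different codon positions.
Camk2n1 coding sequence: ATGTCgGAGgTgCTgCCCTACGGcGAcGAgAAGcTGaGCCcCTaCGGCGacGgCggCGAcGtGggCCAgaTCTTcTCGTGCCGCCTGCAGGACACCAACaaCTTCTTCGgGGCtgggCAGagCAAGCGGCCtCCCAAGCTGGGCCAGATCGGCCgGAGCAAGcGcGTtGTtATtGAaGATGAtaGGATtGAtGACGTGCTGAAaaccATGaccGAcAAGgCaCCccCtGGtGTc
Camk2n2 coding sequence: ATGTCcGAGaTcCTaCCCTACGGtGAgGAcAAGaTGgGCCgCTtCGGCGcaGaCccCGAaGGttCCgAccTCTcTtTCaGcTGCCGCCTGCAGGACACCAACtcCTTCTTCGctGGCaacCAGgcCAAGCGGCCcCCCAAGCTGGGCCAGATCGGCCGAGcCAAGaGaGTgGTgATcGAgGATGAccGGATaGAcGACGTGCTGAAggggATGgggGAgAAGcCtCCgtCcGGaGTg

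The normalized count of Camk2n1 was 27253, 24598 and 23823 in N-cre mice and 23986, 22679 and 24117 in N-cre;Fox1 mice. The highest value was in N-cre replicate 1, and the other 5 mice lay close together across both genotypes. Camk2n1 had a log2 fold change of -0.10 (SE 0.0543, 95% interval -0.22 to 0.02), with an unadjusted p of 0.105, the lowest of the 9 genes, and an adjusted p of 0.849 (edgeR QL, BH). Without N-cre replicate 1 the log2 fold change of Camk2n1 was -0.03. The study lists Camk2n1-201 among isoforms that differ in Rbfox1 knockout mice, so that naming it here is not independent of that list. Camk2n2 had normalized counts of 2377, 2473 and 2160 in N-cre mice and 2118, 2364 and 2380 in N-cre;Fox1 mice. The groups overlapped at a log2 fold change of -0.03 (SE 0.0611, 95% interval -0.17 to 0.11).

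Camk4 encodes CaMKIV, which phosphorylates the transcription factor CREB. Normalized counts were 5868, 5912 and 5513 in N-cre mice and 5830, 5691 and 5806 in N-cre;Fox1 mice, all on 1 isoform. The log2 fold change was 0.00 (0.00256, SE 0.0377), with a 95% interval from 5.46% lower to 6.15% higher. Camkk1 and Camkk2 encode the kinases that phosphorylate the activation loop of CaMKI and CaMKIV, and CaMKK2 also activates AMPK. Camkk1 had normalized counts of 12917, 12743 and 12518 in N-cre mice and 13258, 11789 and 12969 in N-cre;Fox1 mice, and Camkk2 had 9400, 9002 and 8855 against 9060, 8649 and 8598. Values of both overlapped, with log2 fold changes of -0.01 (SE 0.0449, 95% interval -0.11 to 0.09) for Camkk1 and -0.05 (SE 0.0377, 95% interval -0.13 to 0.03) for Camkk2.

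The balance of alpha to beta was taken as the ratio of the Camk2a sum to the Camk2b sum of expected counts in each mouse. It was 2.91, 2.86 and 2.96 in N-cre mice and 2.89, 2.94 and 2.92 in N-cre;Fox1 mice. The mean ratio was 2.91 ± 0.0522 for N-cre against 2.92 ± 0.0236 for N-cre;Fox1 (SD, n = 3 each), and the groups overlapped. The difference of the log2 ratios was 0.00 (0.0040), with p = 0.9 in a two-sided exact permutation test, whose smallest possible p with 3 mice against 3 is 0.1. Per annotated transcript length the ratio was 2.28 over the 6 mice, where Camk2a-203 has 4970 bases and Camk2b-209 has 4023. Between Camk2a-203 and Camk2b-209 alone, the most abundant isoform of each gene, it was 2.97.

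The sum of both inhibitors was 0.0931, 0.0918 and 0.0854 of the summed CaMKII counts in N-cre mice and 0.0822, 0.0910 and 0.0851 in N-cre;Fox1 mice. The mean was 0.0901 ± 0.00410 for N-cre against 0.0861 ± 0.00449 for N-cre;Fox1 (SD, n = 3 each). The groups overlapped, and the difference of the log2 ratios was -0.07 (exact permutation p = 0.2, two-sided).

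Of the length-scaled CaMKII sum, Camk2a made up 64.7% ± 0.474 in mice labelled N-cre against 64.7% ± 0.274 in those labelled N-cre;Fox1 (SD, n = 3 each), and Camk2b made up 28.5% ± 0.326 and 28.3% ± 0.354 (SD, n = 3 each). Camk2g contributed 5.82% ± 0.0847 and 6.11% ± 0.335, and Camk2d 1.01% ± 0.126 and 0.866% ± 0.301 (SD, n = 3 each). The genotypes overlapped for all 4 subunits, with two-sided exact permutation p from 0.2 for Camk2g to 1 for Camk2a. The plot of balances shows that the alpha to beta ratio moved little from mouse to mouse (2.86 to 2.96). The inhibitor ratio ran from 0.0822 to 0.0931.

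**Figure D3:**
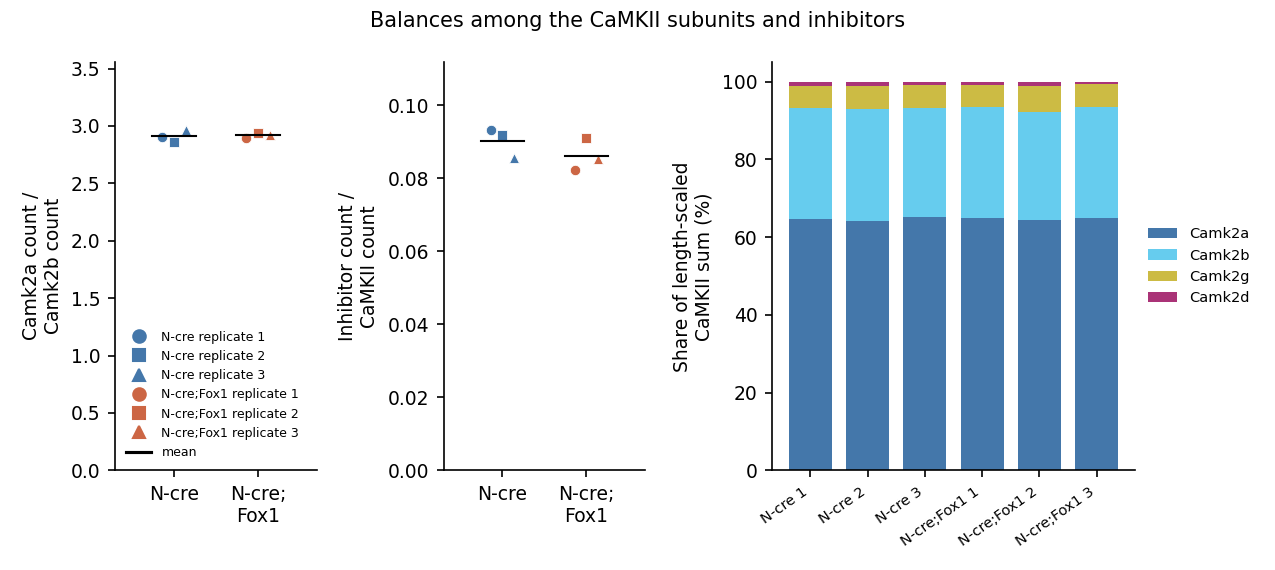
Ratio of Camk2a to Camk2b expected counts (left), ratio of both inhibitors to the 4 CaMKII genes (middle) and share of each CaMKII gene in the length-scaled sum in percent (right), for each of 6 mice, with lines for the mean of 3 mice. The alpha to beta ratio lies between 2.86 and 2.96 in all 6 mice.

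Most reads of Camk2a and Camk2b were assigned to 1 isoform each. Camk2a-203, which lacks the 33-base nuclear exon, held 97.7%, 97.4% and 97.2% of the Camk2a count in N-cre mice and 97.0%, 96.9% and 97.5% in N-cre;Fox1 mice. The 33-base exon of Camk2a (chr18:60969011-60969043) was on isoforms with 2.41% ± 0.217 of the count that spans it in N-cre and 2.68% ± 0.321 in N-cre;Fox1 mice (SD, n = 3 each), and the groups overlapped. Camk2b-209 held 95.7%, 95.1% and 95.1% of the Camk2b count in N-cre mice and 95.4%, 95.6% and 94.98% in N-cre;Fox1 mice. Its 75-base exon was included in 98.1% ± 0.123 and 98.0% ± 0.121, and its 45-base exon in 98.3% ± 0.139 and 98.2% ± 0.118 of the count on isoforms that span them (SD, n = 3 each).

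Camk2d and Camk2g were divided among more isoforms. Camk2d-206 held 51.1%, 49.7% and 53.2% of the Camk2d count in N-cre mice and 54.1%, 47.7% and 38.5% in N-cre;Fox1 mice. N-cre;Fox1 replicate 3 stood below the other 5 mice, at a gene sum that was also the lowest. Camk2d-228, which ends with another last coding exon (89 bases, chr3:126841485-126841573), held 27.4% ± 0.537 in N-cre and 26.99% ± 3.45 in N-cre;Fox1 mice (SD, n = 3 each). The 89-base exon was included in 37.9% ± 0.263 and 39.1% ± 1.90 of the spanning count (SD, n = 3 each). The 60-base exon was included in 86.8% ± 2.00 and 82.9% ± 8.68 of the spanning count, and the 42-base exon in 86.4% ± 2.52 and 83.9% ± 8.43 (SD, n = 3 each). The 33-base nuclear exon of Camk2d was included in 6.23%, 5.94% and 0% in N-cre mice and in 0%, 3.74% and 14.3% in N-cre;Fox1 mice, almost all of it on Camk2d-205. Each genotype thus held 1 mouse at 0 next to mice at several percent, and the Camk2d sum in the least covered library, N-cre replicate 3, was 1543 expected counts.

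Camk2g-202 held 34.6%, 32.5% and 36.5% of the Camk2g count in N-cre mice and 35.6%, 35.8% and 38.0% in N-cre;Fox1 mice. Camk2g-203, which lacks the 69-base exon, held 26.8% ± 4.58 and 27.6% ± 1.77, and Camk2g-201, which holds the 33-base exon, 26.2% ± 2.86 and 23.5% ± 0.909 (SD, n = 3 each). The 33-base exon was included in 32.96%, 35.2% and 38.6% of the spanning count in N-cre mice and in 34.6%, 32.0% and 32.3% in N-cre;Fox1 mice (two-sided exact permutation p = 0.2). It was thus far more used in Camk2g than the corresponding exon was in Camk2a or Camk2d, in every mouse. The 69-base exon was included in 68.6% ± 4.71 and 67.4% ± 1.71 (SD, n = 3 each), and the 45-base exon was on every Camk2g isoform that spans it.

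Camkk1 was divided between Camkk1-201, which encodes the kinase, and Camkk1-203, which keeps an intron of 269 bases (chr11:73037269-73037537, plus strand) and is annotated as a retained intron without a coding sequence. The intron is shown because Camkk1-203 keeps it and Camkk1-201 lacks it, with its first and last 2 bases in capitals.
Camkk1 intron: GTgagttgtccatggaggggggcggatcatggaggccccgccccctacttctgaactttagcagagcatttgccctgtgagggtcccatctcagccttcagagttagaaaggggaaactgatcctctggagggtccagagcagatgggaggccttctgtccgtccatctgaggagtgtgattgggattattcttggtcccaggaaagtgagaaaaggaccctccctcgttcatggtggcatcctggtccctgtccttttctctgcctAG

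Camkk1-203 held 27.7%, 24.1% and 25.6% of the Camkk1 count in N-cre mice and 27.4%, 30.8% and 30.5% in N-cre;Fox1 mice. N-cre;Fox1 replicates 2 and 3 were the highest, and N-cre;Fox1 replicate 1 lay below N-cre replicate 1. Camkk2-201 held 79.8% ± 0.448 and 78.8% ± 1.15 of the Camkk2 count, and Camkk2-204, whose last exon runs through the 43-base exon that encodes part of the end of Camkk2-201, 17.0% ± 0.421 and 17.9% ± 1.09 (SD, n = 3 each). These 2 Camkk2 isoforms are also on the study's list for the knockout, and both overlapped between the genotypes. The plot of shares puts the abundant isoforms side by side.

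**Figure D4:**
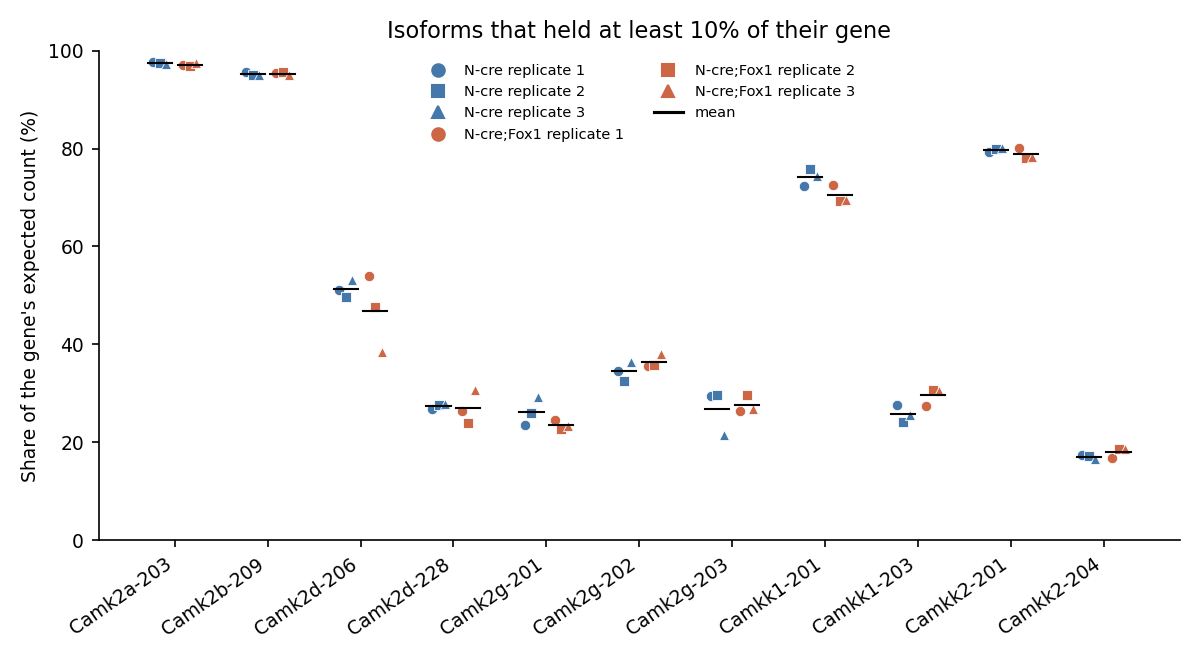
Share of the expected count of its gene (percent) held by each isoform with a mean share of at least 10%, in each of 6 mice, for genes with more than 1 isoform, with lines for the mean of 3 mice. The genotypes overlap for all 11 isoforms, and Camk2d-206 spreads most, from 38.5% to 54.1%.

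In the test of isoform counts, 0 of the 55 member isoforms were called at an adjusted p of 0.05 (edgeR QL, BH, lowest 0.945), and 0.0% of the 50556 isoforms tested passed. DESeq2 and limma-voom called 0 members as well, while DESeq2 called 215 isoforms in all. An unadjusted p under 0.05 was found for 4 of the 55 (7.27%), against 4.78% of all isoforms, and normalized counts did not overlap between the genotypes for 6 of the 55 (10.9%), against 11.5% of all. Of the 55, 27 had a log2 fold change above 0 and 28 below 0, with a median log2 fold change of -0.02, against 0.00 (0.0040) for all isoforms. In the test of shares within a gene (diffSpliceDGE of edgeR), 0 of 52 member isoforms passed at an adjusted p under 0.05, where 0.214% of 42441 did, and 0 of 52 had an unadjusted p under 0.05, where 1.81% did. Without N-cre replicate 2, 1 member isoform was called in this test, Camk2b-210 (adjusted p 0.000355, edgeR diffSpliceDGE), and the cause was not tested. It is named after its values were seen. Its normalized counts were 0.860, 250.2 and 0 in N-cre mice and 167, 0.911 and 579.6 in N-cre;Fox1 mice, near 0 in some mice of each genotype. The mouse left out, N-cre replicate 2, was the only N-cre mouse not near 0. Shares did not overlap for 5 of the 52 (9.62%), against 11.2% of all. A test with the gene sum as an offset was added after the data were seen. It estimates a spread for each isoform, drawn toward that of all isoforms. In it, 6 of the 52 (11.5%) had an unadjusted p under 0.05, against 5.21% of all, and 0 an adjusted one (lowest 0.831). The 6 were Camk2a-202, Camk2b-204, Camk2b-215, Camk2g-212, Camkk1-201 and Camkk1-203. Camkk1-201 and Camkk1-203 are the only Camkk1 isoforms with counts, so their shares mirror each other. Camk2b-215 is named after its values were seen.

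Camk2b-204 (ENSMUST00000090443.9) is the Camk2b isoform that the study lists for these mice, so that its difference is not independent evidence. Its normalized count was 169, 135 and 176 in N-cre mice and 94.6, 100.2 and 116 in N-cre;Fox1 mice. Each N-cre;Fox1 mouse was below each N-cre mouse, and Camk2b-204 had a log2 fold change of -0.63 (SE 0.172, 95% interval -1.05 to -0.22), with an unadjusted p of 0.00954 and an adjusted p of 0.945 (edgeR QL, BH). It held 0.214% ± 0.0278 of the Camk2b count in N-cre and 0.142% ± 0.0179 in N-cre;Fox1 mice (SD, n = 3 each, two-sided exact permutation p = 0.1, the smallest possible). In N-cre replicate 3, where the share was 0.240%, the 95% Wilson interval was 0.203% to 0.284%, which covers counting error only. The other Camk2b isoforms that the study lists, from the knockout, were Camk2b-207, with 103 ± 50.5 and 105 ± 15.3 normalized counts, and Camk2b-211, with 284 ± 24.0 and 261 ± 25.9 (SD, n = 3 each), and both overlapped.

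Camkk1-203 had normalized counts of 3582, 3077 and 3196 in N-cre mice and 3635, 3627 and 3944 in N-cre;Fox1 mice. The groups did not overlap, although N-cre replicate 1 (3582) came close to the lowest N-cre;Fox1 mouse (3627). Camkk1-203 had a log2 fold change of 0.19 (0.185, SE 0.0686), with an unadjusted p of 0.0338 and an adjusted p of 0.990 (edgeR QL, BH). Markers of neuronal activity (9 of 9 tested, among them Fos, Fosb, Egr4 and Arc) summed to 29313, 26168 and 29659 in N-cre mice and 28269, 42842 and 47120 in N-cre;Fox1 mice. N-cre;Fox1 replicates 2 and 3, with the highest sums, also had the highest share of Camkk1-203 (30.8% and 30.5%). The other mice kept this order in part. N-cre replicate 2 had the lowest sum and the lowest share (24.1%). N-cre replicate 1 was above N-cre;Fox1 replicate 1 for both (27.7% against 27.4%). N-cre replicate 3 had a higher sum than N-cre;Fox1 replicate 1 but a lower share (25.6% against 27.4%). The part of these markers in the Camkk1-203 values was not tested.

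Camk2a-202, a short isoform from the end of the gene, had normalized counts of 315, 307 and 294 in N-cre mice and 341, 403 and 387 in N-cre;Fox1 mice. All N-cre;Fox1 mice were above all N-cre mice, and the isoform held 0.140% and 0.177% of the Camk2a count on average. Camk2a-202 had a log2 fold change of 0.30 (SE 0.106, unadjusted p 0.0274, adjusted p 0.990 by edgeR QL and BH). Camk2d-216 had normalized counts of 31.8, 34.4 and 36.6 in N-cre mice and 20.7, 23.7 and 14.3 in N-cre;Fox1 mice. It was lower in all N-cre;Fox1 mice, at a log2 fold change of -0.80 (SE 0.294, unadjusted p 0.0323, adjusted p 0.990 by edgeR QL and BH), on few counts. Camk2g-212, a fragment of 673 bases with the 33-base exon, had normalized counts of 391, 390 and 350 in N-cre mice and 422, 445 and 451 in N-cre;Fox1 mice. It did not overlap, with a log2 fold change of 0.22 (SE 0.0926, unadjusted p 0.0528, adjusted p 0.990 by edgeR QL and BH). Camk2g-209, named after its values were seen because its counts did not overlap, had 65.1 ± 9.28 and 54.5 ± 3.22 normalized counts (SD, n = 3 each). The other isoforms from the study's list for the knockout, Camk2d-217, Camk2d-221 and Camk2g-211, overlapped between the genotypes. The plot of these counts shows the 6 isoforms without overlap.

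**Figure D5:**
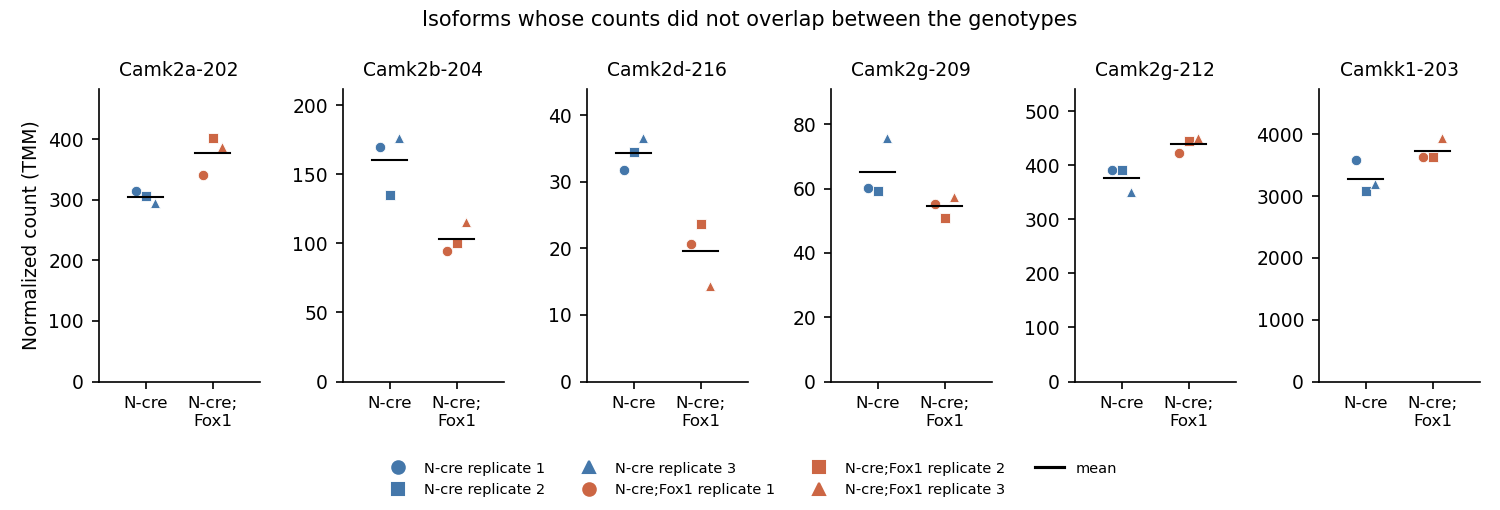
Normalized count (TMM) in each of 6 mice of the 6 member isoforms whose counts did not overlap between the genotypes, each on its own axis from 0, with lines for the mean of 3 mice. The share of all tested isoforms without overlap was 11.5%, against 10.9% of the members.

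GCATG, the DNA form of the motif that Rbfox proteins recognise, was counted in the most abundant transcript of each member, on the sense strand and with overlapping matches counted. Camk4 was not searched, because its isoform has another version in the annotation used. All 8 transcripts searched held it, as did 84.6% of the most abundant transcripts of 17766 tested genes, which are of every length. Of transcripts of like length (within 10%), 72.0% held at least 1 match for Camk2n2-201, and 95.1% to 99.1% for the other members searched. Camk2g-202 held 8 matches, of which 1 lay in the coding sequence and 7 in the 3' UTR, and 3.32% of the 1989 transcripts whose length lies within 10% of its own held at least as many. Camk2a-203 held 7 matches (19.6% of transcripts of like length held at least as many), Camk2b-209 7 (10.8%), Camkk1-201 6 (12.6%), Camk2d-206 6 (21.3%), Camkk2-201 5 (46.9%), Camk2n1-201 3 (76.7%) and Camk2n2-201 1 (72.0%). None of the printed optional exons and neither inhibitor coding sequence nor the Camkk1 intron held it, which says only that these letters are not in these windows. The 3 matches of Camk2n1 lie in its 3' UTR at chr4:138457919-138457947, chr4:138458664-138458692 and chr4:138458911-138458939, and are shown with the motif in capitals because Camk2n1 had the lowest p of the 9 gene sums.
Camk2n1 site 1: gctgcctgttttGCATGgtatttgcaaaa
Camk2n1 site 2: ttctctggggatGCATGggggggggggga
Camk2n1 site 3: ttgggatgttttGCATGtagaaaccccac

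The genes whose level followed that of Camk2a most closely over the 6 mice were Gba2, Chrm1 and Mpi, with root mean square differences of centred log2 values of 0.0134, 0.0141 and 0.0141 among 13736 genes compared. Camk2b ranked 6 for Camk2a (0.0165). Chrm1 encodes the M1 muscarinic receptor, and the points of these comparisons share the same 6 libraries.

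The pathway around the CaM kinases was read from 45 genes, of which edgeR's QL test called 0 after BH adjustment. An unadjusted p under 0.05 was found for 3 of the 45 (6.67%), against 6.19% of all genes, and 20 were higher and 25 lower, with a median log2 fold change of 0.00 (-0.00224). Normalized counts did not overlap between the genotypes for 4 of the 45, against 12.2% of all genes. Of these 4, Camk1 and Eef2k were lower and the others were higher. Of 10 genes of calcium entry and calmodulin supply (among them Nrgn and Grin2b), 0 had an unadjusted p under 0.05, and their log2 fold changes lay between -0.04 and 0.06. The same held for the 9 opposing phosphatases, among them the calcineurin subunit genes Ppp3ca and Ppp3cb, at -0.06 to 0.07. Of 10 other CaM-dependent kinases and their relatives, 8 were lower, and 2 of these had an unadjusted p under 0.05. Camk1, which encodes CaMKI, a substrate of the CaMKKs, had normalized counts of 2127, 2317 and 2270 in N-cre mice and 2009, 2050 and 2123 in N-cre;Fox1 mice. It was lower in every N-cre;Fox1 mouse, at a log2 fold change of -0.12 (SE 0.0456, unadjusted p 0.0260, adjusted p 0.783 by edgeR QL and BH). Eef2k, which encodes the kinase of elongation factor eEF2, had 2794, 2690 and 2700 against 2670, 2451 and 2477, without overlap, at a log2 fold change of -0.11 (SE 0.0422, unadjusted p 0.0278, adjusted p 0.783 by edgeR QL and BH). Of 16 substrates and partners, 8 were higher and 8 lower, and only Crem, a CREB-related transcription factor, had an unadjusted p under 0.05. Its normalized count was 572, 537 and 526 in N-cre mice and 561, 662 and 663 in N-cre;Fox1 mice. N-cre;Fox1 replicates 2 and 3, the mice with the highest summed activity markers, were the highest for Crem, and the groups overlapped at a log2 fold change of 0.21 (SE 0.0875, adjusted p 0.799 by edgeR QL and BH).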

How the data were processed

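Hippocampal total RNA of 6 mice, depleted of ribosomal RNA, was sequenced with a stranded library kit, 1 library per mouse. Per the submitters' processing notes, reads were trimmed with cutadapt 1.18, mapped to mm10 with STAR 2.5.2b and quantified with RSEM 1.3.0. The authors deposited the expected counts per isoform, neither normalized nor filtered, on GENCODE M16. Groups and replicate numbers came from the sample labels, and 0 columns were left unused.

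Expected counts were rounded, filtered with filterByExpr (minimum count 10, minimum total 15) and compared in R 4.3.3 with the QL test of edgeR 4.0.16 (TMM scaling and a genotype term) over all genes or isoforms, with Benjamini-Hochberg adjustment and a threshold of 0.05. Shares within genes were compared with diffSpliceDGE, and single shares, ratios and makeup with two-sided exact permutation tests written in Python. The fits were tested on simulated data. Intervals of single shares are 95% Wilson intervals and cover counting error only. Lengths, exons and sequences came from GENCODE M21 on the same build. Isoforms with a length there took 99.8% of the counts, and those of the same version 93.4%. Where the version differed, as for Camk4-201, the length of the other version was used. The labels give replicate numbers, and the study describes the replicates as biological. The p-values rest on the spread between these mice, which the edgeR fits draw toward that of all genes or isoforms. At the totals of 40463587 to 62141336 expected counts per mouse, counting error relative to the value was largest for rare isoforms.

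The text names the 9 genes, isoforms with at least 10% of their gene, isoforms with an unadjusted p under 0.05 and a mean count of at least 10, isoforms on the study's lists, pathway genes with an unadjusted p under 0.05, and the 3 genes most like Camk2a. Some results, among them the genes most like Camk2b, are not reported here. The members and lists were chosen with earlier results of these data known. Alternatives were the size factors and the Wald test of DESeq2 1.42.0, upper quartile scaling, other filters, limma-voom (limma 3.58.1), unrounded counts, the replicate number as a block and each mouse left out. The gene sum as an offset, a term for high Xist, and leaving out the mice with high Ttr were added after the data were seen. Within each genotype, deviations of mice with the same number correlated at 0.378, -0.0951 and -0.211, so the numbers were not taken to pair the mice.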

Additional observations from a re-analysis of the deposited data

How the results depend on the processing

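The differences of most members lay within the spread between mice, and rare isoforms rested on few counts. No member gene or isoform was called by any gene or isoform fit, and in the share test 0 to 1 were called when each mouse was left out, the 1 being Camk2b-210 without N-cre replicate 2. The replicate numbers were not taken to pair the mice. With the replicate block the calls were 5 for genes, 0 for isoforms and 62 for shares, and 0 members. The 5 gene calls over the whole table became 45 with no filter, 50 with the DESeq2 Wald test, 11 with a term for high Xist and 2 to 28 when 1 mouse was left out. The 0 isoform calls (edgeR) became 10 with no filter, 6 with at least 10 counts in every mouse, 215 with DESeq2, 1 without rounding and stayed at 0 with each mouse left out. The 91 share calls became 149 with limma-voom, 44 with at least 10 counts in every mouse, 0 with the gene sum as offset, 240 without the 2 mice with high Ttr, and 158 to 179 with 1 mouse left out. The cause of these changes was not tested.

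The alpha to beta difference (log2) was -0.0011 between the most abundant isoforms and -0.00882 to 0.0170 with 1 mouse left out, and the inhibitor difference -0.106 to -0.0330. Leaving out 1 mouse gave differences in makeup of -0.220 to 0.254 points for Camk2a, -0.330 to 0.0456 for Camk2b, -0.317 to -0.0315 for Camk2d and 0.0972 to 0.414 for Camk2g. With the longest isoform as length, TPM was 2290 for Camk2a, 947 for Camk2b, 21.1 for Camk2d, 160 for Camk2g, 289.5 for Camk2n1, 94.4 for Camk2n2, 112 for Camk4, 180.1 for Camkk1 and 96.8 for Camkk2. The 56 single results of members had 755 alternative values, of which 705 kept direction and side of the threshold, 49 changed sign and 1 passed the threshold.

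Sign changes without the 2 mice with high Ttr (log2) were 0.0464 for the Camk2a sum, 0.0356 for Camk2b, -0.0157 for Camk4 and 0.0335 for Camkk1. For isoform counts they were 0.0361 for Camk2a-203, -0.320 for Camk2b-207, 0.0267 for Camk2b-209, -0.121 for Camk2g-203 and -0.0359 for Camkk2-204. For shares they were -0.349 for Camk2b-207, -0.00278 for Camk2b-209, 0.0591 for Camk2d-228 and -0.149 for Camk2g-203. Upper quartile scaling gave -0.00747 for the Camk4 sum. Leaving out 1 mouse moved gene sums across 0 for Camk2a (-0.0550 to 0.0441), Camk2b (-0.0643 to 0.0462), Camk2n2 (-0.0794 to 0.0264), Camk4 (-0.0242 to 0.0237) and Camkk1 (-0.0347 to 0.0436). It did so for the counts of Camk2a-203 (-0.0683 to 0.0377), Camk2b-207 (-0.261 to 0.465), Camk2b-209 (-0.0747 to 0.0408), Camk2d-217 (-0.406 to 0.339), Camk2d-221 (-0.416 to 0.254), Camk2g-203 (-0.0781 to 0.154) and Camkk2-204 (-0.0167 to 0.0615). For shares the ranges were -0.222 to 0.461 for Camk2b-207, -0.00150 to 0.00343 for Camk2b-209, -0.136 to 0.574 for Camk2d-217, -0.175 to 0.398 for Camk2d-221, -0.132 to 0.0551 for Camk2d-228 and -0.0958 to 0.110 for Camk2g-203.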
